A study of Mus musculus with 6 samples.

Results

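Chemokines are small secreted proteins, named by the spacing of their first cysteines (CC, CXC, CX3C and XC), and their receptors carry the same names. The genes described here are all rows of the deposited table whose symbol has the form Ccl, Cxcl, Cx3cl1, Xcl1, Ccr, Cxcr, Cx3cr1, Xcr1 or *Ackr1* to *Ackr4*, 66 of 34745 rows with 61 different symbols (44 rows of ligands and 22 of receptors). Of these, 51 rows had any count and 30 passed the expression filter and were tested, 22 ligands and 8 receptors. The RNA-seq compared cardiac fibroblasts from the left ventricle of KDM5B-KO mice, in which CRISPR/Cas9 cut the JmjC domain out of *Kdm5b* and shifted the reading frame, with those of littermate WT mice on a C57BL/6 background. All mice had a myocardial infarction (MI), made by tying off a coronary artery for good, the cells were taken on Day 7, and there were 3 libraries of each label (KO-1 to KO-3 and WT-1 to WT-3). The labels give an age of 8 to 10 weeks, the methods describe the operation in male mice, and neither says how many mice went into a library, so the p-values measure the spread between these libraries only. The general methods for fibroblasts describe plating cells from hearts of 2-week-old mice, which differs from the labelled age, and no source used here says whether the sequenced cells were cultured before RNA was taken, so levels of chemokines and leukocyte markers may not be those in the heart. The deletion is in every cell of the mouse, and no uninjured heart is among the libraries.

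Chemokines bind receptors in the cell membrane that couple to inhibitory G proteins and make leukocytes move toward the source. Atypical chemokine receptors (Ackr) take up or carry chemokines without that coupling. In the infarcted heart, CXC ligands of CXCR2 draw neutrophils early, CC ligands of CCR2 draw monocytes, and CXCL12 acts through CXCR4 on progenitor and immune cells.

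The libraries held 12025403 to 15329427 counts, and a count of 0 in the smallest of them allows up to 3 counts, or 0.249 CPM (counts scaled to the size of the library). Values below are CPM after TMM normalization unless another unit is named, and changes are log2 fold changes, KO-labelled over WT-labelled, with their standard error (SE). The targeted gene *Kdm5b* was at 98.1, 107 and 105 in the libraries labelled KO and at 108, 129 and 123 in those labelled WT. It did not pass the threshold (log2 fold change -0.22, adjusted p = 0.0574 from edgeR), so the groups are named by their labels. By Q-PCR and immunoblot, the paper reports that KO cardiac fibroblasts had almost no *Kdm5b* mRNA or KDM5B protein. The counts here are per gene and do not show the deleted bases apart. All 12 fibroblast markers were detected and lower under the KO label, with sums of 26819 to 31261 against 37514 to 39959. The sums of 15 endothelial markers were 2000 to 2694 against 567 to 572, with 13 higher. Of 12 tested macrophage markers 6 were lower and 4 higher, with *Cd163* and *Timd4* at 0 in all libraries. They summed to 1296 to 1340 against 1474 to 1565, most of it *Lyz2* (813, 858 and 813 against 1154, 1073 and 1104), and to 475 to 527 against 401 to 414 without it. Leaving out *Lyve1* as well (113, 89.0 and 91.8 against at most 1.96), which is also a lymphatic endothelial marker, the sums overlapped, at 386 to 414 against 400.1 to 413. Of 11 tested cardiomyocyte markers 7 were lower and none higher (median log2 fold change -0.41, sums of 799 to 896 against 1116 to 1140), and of 8 tested mural markers 5 were lower and 1 higher (median -0.41). In bulk RNA, fewer cells of a type and less RNA per cell cannot be told apart, and the part of these differences in the results below was not tested.

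Chemokine transcripts went both ways between the labels. At an adjusted p under 0.05 from edgeR, 6 of the 30 tested genes were higher and 14 were lower in the libraries labelled KO, where 17.7% and 12.5% of all 14084 tested genes were. The share of members that were higher (20.0%) was near that background, and the share that were lower (46.7%) was above it. When a library was left out, 3 to 6 members were higher and 10 to 13 lower. The median log2 fold change was -0.28 over the tested members and -0.02 over all tested genes. All 3 values of one label lay apart from the other's for 23 of the 30 tested members, 7 higher and 16 lower, where 24.7% and 22.4% of all tested genes lay apart in these directions. The rises were *Cxcl1*, *Cxcl2*, *Cxcl3*, *Ccl5*, *Ccr10* and *Ackr3*, of which *Ccr10* passed the expression filter only through the KO-labelled libraries. Most falls were small, and only those of *Cxcl14* and *Ackr1* were past a log2 fold change of -1. With the libraries set to equal levels of fibroblast markers, an alternative added after seeing the data, 12 members were higher and 2 lower (*Ackr1* and *Cxcl14*), and *Ccl2* was among the higher. Since these markers were themselves lower, that scaling raised the all-gene median by 0.43, with 8852 of all tested genes called higher and 37 lower. With macrophage markers instead (median up by 0.25), 8 members were higher and 5 lower (*Ackr1*, *Cxcl14*, *Cxcr4*, *Cx3cr1* and *Cxcl16*), where 5624 and 140 of all genes were. Such a shift raises the fold change of every gene, so these counts say nothing about the stability of the rises or of the small falls.

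**Figure D1:**
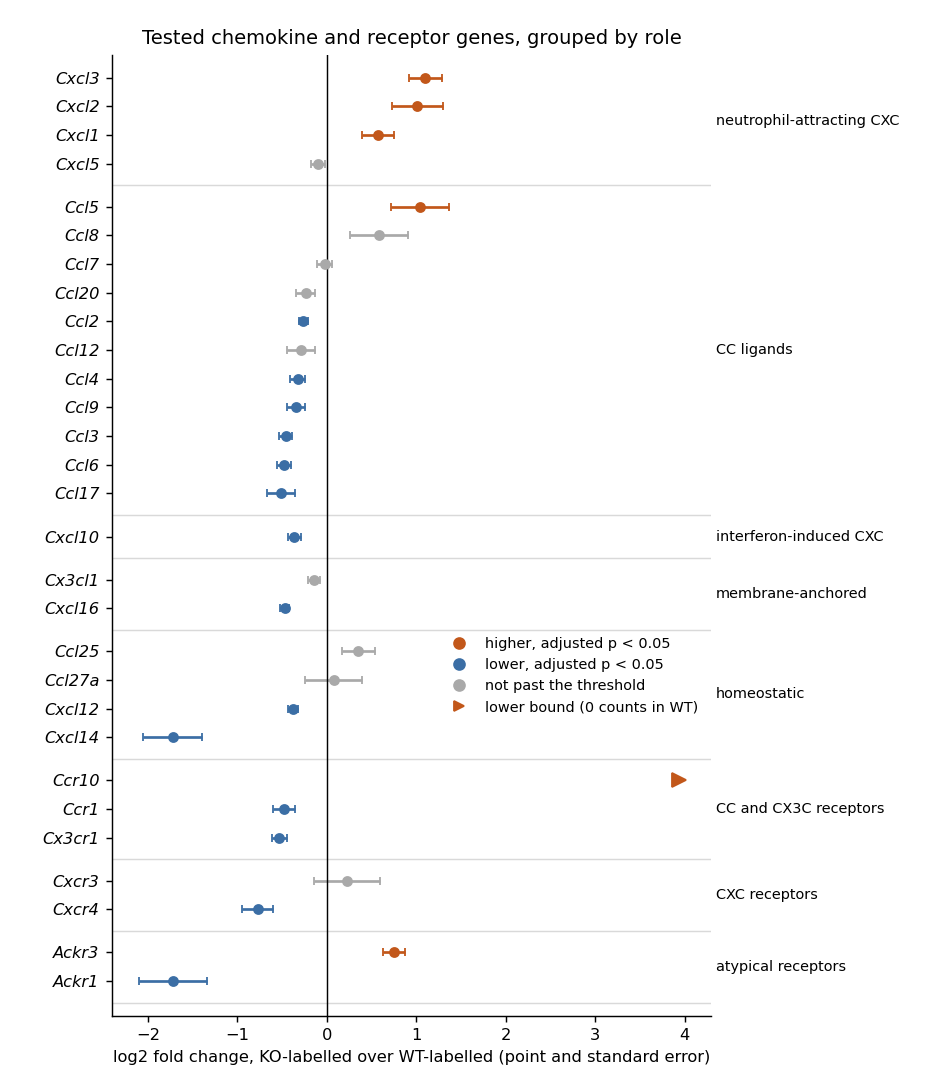
Log2 fold change (KO-labelled over WT-labelled libraries) with its standard error for tested chemokine and receptor genes, grouped by role, with n = 3 libraries per label. Orange points were higher and blue points lower at an adjusted p under 0.05, and grey points were not past it. The triangle for *Ccr10* is a lower bound set by the floor, since its WT-labelled libraries had 0 counts. It is the log2 of 15.4, the mean under the KO label over that floor.

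Of the 4 ligands that attract neutrophils through CXCR2, all tested, 3 were higher (75.0%, where 17.7% of all tested genes were) and none was lower. *Cxcl1* (ENSMUSG00000029380, chr5:90891241-90893115 in mm10, plus strand), the mouse counterpart of the human GRO chemokines, was at 1778, 1124 and 1081 CPM in KO-1, KO-2 and KO-3 and at 990, 819 and 878 CPM in WT-1, WT-2 and WT-3. The labels did not overlap, and KO-1 stood above the other KO-labelled libraries. The log2 fold change was 0.57 (SE 0.18, adjusted p = 0.0429 from edgeR). Without KO-1 it was 0.30 (adjusted p = 0.0254), and over the 13 alternative analyses the adjusted p ran from 0.0135 to 0.125. The call was lost under 6 of them, including the removal of WT-1 (0.063), WT-2 (0.125) or WT-3 (0.11) and DESeq2 (0.0912).

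*Cxcl2* (ENSMUSG00000058427, chr5:90903871-90905938, plus strand), also known as MIP-2, was at 212, 94.0 and 107 CPM under the KO label and at 74.6, 57.3 and 72.9 CPM under the WT label. KO-1 was again the highest, and the lowest KO value lay above the highest WT value. Its log2 fold change was 1.01 (SE 0.28, adjusted p = 0.0281 from edgeR), and 0.56 without KO-1 (adjusted p = 0.0135). The adjusted p ran from 0.00818 to 0.0897 over the alternatives, past 0.05 when WT-1 (0.0608), WT-2 (0.0897) or WT-3 (0.0654) was left out and with limma (0.0529). *Cxcl3* (ENSMUSG00000029379, chr5:90786103-90789600, plus strand), a close relative of both, was at 78.6, 47.1 and 50.7 CPM against 28.8, 24.6 and 28.7 CPM. Its rise had the smallest adjusted p of the 3, with a log2 fold change of 1.10 (SE 0.19, adjusted p = 0.00308 from edgeR). Without KO-1 it was 0.84 (adjusted p = 0.000802), and it held under all 13 alternatives.

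*Cxcl5* (ENSMUSG00000029371, chr5:90759360-90761624, plus strand), a further CXCR2 ligand of the same gene cluster, did not follow them. It was at 687, 584 and 618 CPM under the KO label and at 739, 616 and 666 CPM under the WT label, and the labels overlapped. The log2 fold change was -0.10 (SE 0.08, adjusted p = 0.396 from edgeR). Within each library, the ratio of the *Cxcl1* to the *Cxcl5* level per kilobase of exon was 2.57, 1.91 and 1.74 under the KO label and 1.33, 1.32 and 1.31 under the WT label. The WT-labelled libraries thus differed little in this ratio, and every KO-labelled library lay above them. The ratio of *Cxcl3* to *Cxcl5* was 0.0609, 0.0430 and 0.0437 against 0.0207, 0.0213 and 0.0230. The exact two-sided permutation test gave p = 0.1 for each ratio, the smallest that 3 libraries against 3 allow. These ratios do not change with the scaling of the libraries.

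**Figure D2:**
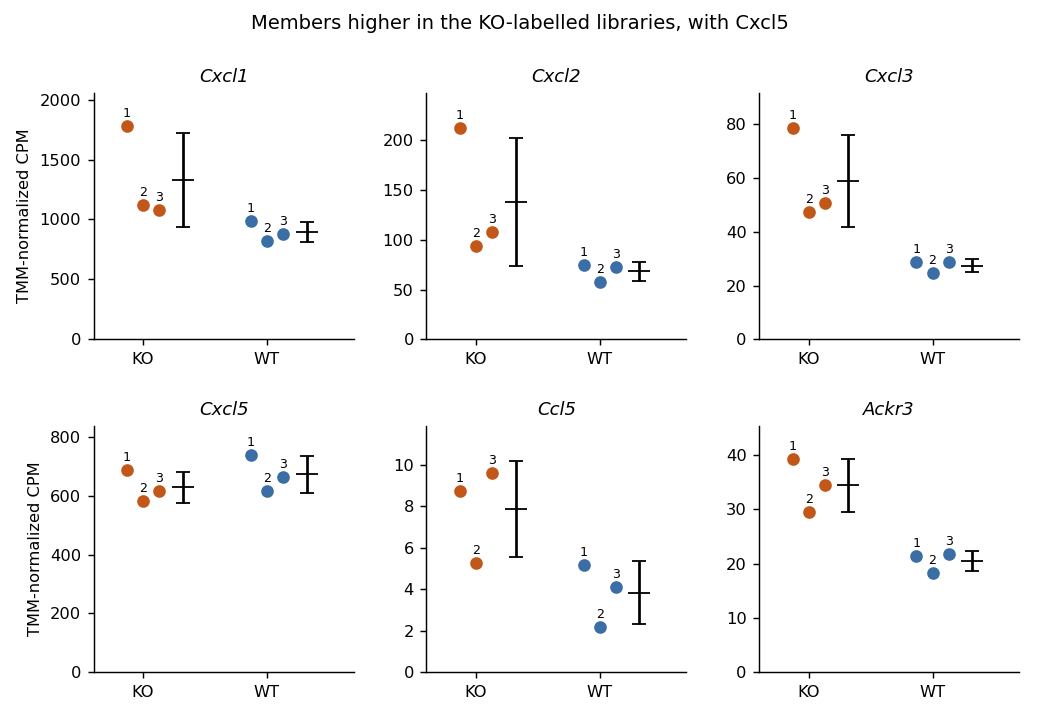
TMM-normalized CPM of *Cxcl1*, *Cxcl2*, *Cxcl3*, *Cxcl5*, *Ccl5* and *Ackr3* in each library (points, numbered by replicate), with the mean and SD of the 3 libraries of a label beside them. KO-1 is the highest library for *Cxcl1*, *Cxcl2*, *Cxcl3* and *Ackr3*, and *Cxcl5* overlaps between the labels.

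The receptors of these ligands were at or near the floor. *Cxcr2* had 0, 1 and 1 counts under the KO label and 0, 5 and 3 under the WT label, and *Cxcr1* had at most 1 count in a library. Neutrophil markers summed to 255 to 355 CPM against 101 to 106 CPM, with 3 of 7 tested markers higher and 1 lower, and most of that sum was *Lcn2* (315, 222 and 224 against 65.3, 74.9 and 69.3 CPM), a gene that stromal cells also express. Without it the sums overlapped, at 33.0 to 39.4 CPM against 31.5 to 35.3 CPM, and they were then mostly *Mmp8* and *Mmp9*. The collagenase gene *Mmp8* was the marker that was lower (log2 fold change -0.55), and *Csf3r* (-0.41), *Camp* (-0.41) and *Mmp9* (0.14) did not pass the threshold. The calprotectin subunit gene *S100a8* was at 6.06, 3.98 and 4.06 CPM against 1.12, 0.205 and 0.427 CPM (log2 fold change 2.99, adjusted p = 0.00174 from edgeR). Its partner *S100a9* was at 1.56, 0.825 and 0.967 CPM against 0.35, 0.205 and 0.284 CPM (log2 fold change 1.95, adjusted p = 0.0106 from edgeR). *Ly6g* was at 0.451 to 1.23 CPM against 0 counts in all WT-labelled libraries, while *Retnlg* and *Ngp* were at most 0.213 CPM in any library. KO-1 was also the highest library for *Atf3*, a stress-induced transcription factor, at 160, 63.7 and 64.4 CPM against 16.5, 18.2 and 17.6 CPM. The part of these differences in the chemokine values was not tested.

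The upstream sequences of the 3 neutrophil-attracting genes that rose are shown because they share a kappa B site, the DNA element bound by NF-kB factors. Promoter sequences from RefSeq (GRCm38.p6) were matched for 42 members, 22 of them tested, and *Cxcl5* had no entry. The 250 bases before each start site were searched. The 150 bases before each start site read as follows, 5′ to 3′ on the plus strand, with the kappa B match in capitals. They lie at chr5:90891095-90891244 for *Cxcl1*, chr5:90903749-90903898 for *Cxcl2* and chr5:90785951-90786100 for *Cxcl3*.
Cxcl1: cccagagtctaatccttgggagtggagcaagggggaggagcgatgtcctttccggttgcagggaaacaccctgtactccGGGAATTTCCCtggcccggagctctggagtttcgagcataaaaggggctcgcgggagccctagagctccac
Cxcl2: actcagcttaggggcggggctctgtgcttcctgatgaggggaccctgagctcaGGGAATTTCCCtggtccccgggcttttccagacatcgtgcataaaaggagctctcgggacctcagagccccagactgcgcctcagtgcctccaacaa
Cxcl3: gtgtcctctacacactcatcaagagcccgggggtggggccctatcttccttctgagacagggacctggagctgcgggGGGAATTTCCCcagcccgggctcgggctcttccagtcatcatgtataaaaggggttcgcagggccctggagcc

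The match is the same stretch in all 3 and begins 5′ at -71, -97 and -73, where -1 is the last base before the start site, and matches the site on both strands, offset by 1 base. Pairwise, the 150-base sequences were identical in 55.9% to 59.6% of aligned columns. Of the tested members with a promoter entry, 3 of 4 that were higher, 3 of 11 that were lower and 1 of 7 not called held a kappa B match, where 7.25% of 32851 promoters did. The lower genes with a match were *Ccl9*, *Ccr1* and *Cxcl10*, so a match was found in both directions of change. The TATA box letters TATAAA were found in 12.4% of all promoters and in 7 of the 22 tested members, and the AP-1 site TGANTCA in 6.75% and in 2 of 22 (*Ccl9* and *Cxcl10*). The interferon-response core GAAANNGAA was found in 7.13% and in 3 of 22 (*Ccl3*, *Cxcl10* and *Cxcl14*), and the CRE letters TGACGTCA in 1.55% and in none of the 22. Both strands were searched. A match says only that these letters are present.

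Among the CC ligands, which act on monocytes, eosinophils and T cells, 6 of the 11 tested genes were lower and 1 was higher (54.5% and 9.09%, where 12.5% and 17.7% of all tested genes were). *Ccl25* and *Ccl27a* are counted with the homeostatic ligands. *Ccl2* (ENSMUSG00000035385, chr11:82035571-82037453), the main monocyte attractant and ligand of CCR2, had the highest level per kilobase of all members in all libraries. It was at 1709, 1711 and 1666 CPM against 2149, 1916 and 2046 CPM, a fall of 0.27 on the log2 scale (SE 0.05, adjusted p = 0.00476 from edgeR). The fall was small beside its level, and every KO-labelled library lay below every WT-labelled one. Its neighbour *Ccl7*, a further CCR2 ligand, was at 645, 561 and 550 CPM against 648, 534 and 603 CPM (log2 fold change -0.02, SE 0.08, adjusted p = 0.856 from edgeR). *Ccl12*, a CCR2 ligand of the mouse, was at 5.40, 6.53 and 7.29 CPM against 7.42, 8.80 and 7.39 CPM (log2 fold change -0.29, adjusted p = 0.193 from edgeR). *Ccl2* alone of these 3 passed the threshold. The *Ccl2* to *Ccl7* ratio of levels was 1.86, 2.15 and 2.13 against 2.33, 2.52 and 2.39 (exact permutation p = 0.1, the smallest possible). *Ccr2* itself had 0, 0 and 1 counts against 4, 2 and 0, at or near the limit of detection.

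*Ccl3* (MIP-1 alpha) and *Ccl4* (MIP-1 beta), attractants of macrophages and T cells, were both lower. *Ccl3* was at 136, 147 and 156 CPM against 200, 186 and 219 CPM (log2 fold change -0.46, SE 0.08, adjusted p = 0.00257 from edgeR). *Ccl4* was at 28.2, 26.9 and 24.2 CPM against 33.9, 31.9 and 33.6 CPM (log2 fold change -0.33, SE 0.08, adjusted p = 0.0172 from edgeR). Neither overlapped between the labels, and the *Ccl4* call was lost when KO-3 (0.0603), WT-1 (0.0548) or WT-3 (0.0553) was left out. *Ccl6* and *Ccl9* are rodent CC ligands that act on CCR1 and are made by macrophages. *Ccl6* was at 25.3, 27.5 and 26.9 CPM against 37.0, 39.5 and 34.7 CPM (log2 fold change -0.48, SE 0.08, adjusted p = 0.00252 from edgeR). *Ccl9* was at 45.4, 48.8 and 53.4 CPM against 64.8, 54.2 and 68.8 CPM (log2 fold change -0.35, SE 0.10, adjusted p = 0.0329 from edgeR), close to touching, and its adjusted p ran from 0.0122 to 0.11 over the alternatives, with the call lost without KO-1 (0.0968), KO-2 (0.0769), WT-1 (0.0961) or WT-3 (0.11). *Ccl17*, a CCR4 ligand of dendritic cells and macrophages, was at 5.73, 6.38 and 4.51 CPM against 7.77, 7.51 and 8.32 CPM (log2 fold change -0.51, SE 0.16, adjusted p = 0.0412 from edgeR). Its call was lost under 8 of 13 alternatives, with adjusted p from 0.0255 to 0.125, including the removal of KO-1 (0.0754), KO-3 (0.125), WT-1 (0.0924), WT-2 (0.0776) or WT-3 (0.112). Of 12 tested macrophage markers 6 were lower, *Adgre1* (log2 fold change -0.38) and *Csf1r* (-0.40) among them, and 4 were higher, and the part of this in the ligand values was not tested.

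*Ccl5* (RANTES; ENSMUSG00000035042, chr11:83525778-83530518), a ligand of CCR1 and CCR3 known from T cells, platelets and macrophages, was the CC ligand that rose. It was at 8.76, 5.25 and 9.61 CPM against 5.18, 2.18 and 4.12 CPM, so the lowest KO and the highest WT value nearly met. The log2 fold change was 1.04 (SE 0.33, adjusted p = 0.0423 from edgeR). The adjusted p ran from 0.0055 to 0.137, past 0.05 without KO-1 (0.103), KO-3 (0.137), WT-2 (0.096) or WT-3 (0.0877) and with limma (0.0521). Of 13 T and NK cell markers, 9 were at 0 counts in all libraries, *Cd3e* and *Nkg7* among them, and they summed to 2.62 to 3.38 CPM against 3.89 to 4.62 CPM, or to 0.655 to 0.838 CPM against 0.751 to 0.995 CPM without *Trac*, which overlapped. The 1 tested, the T cell receptor gene *Trac*, was at 1.97, 2.63 and 2.19 CPM against 3.85, 3.14 and 3.27 CPM. It did not pass the threshold (log2 fold change -0.59, adjusted p = 0.0561 from edgeR). *Pf4*, a platelet chemokine outside the naming rule, was at 38.9, 27.2 and 29.3 CPM against 3.36, 5.60 and 4.05 CPM. The other platelet chemokine gene *Ppbp* was at 1.47, 1.50 and 0.838 CPM against 1.26, 1.30 and 0.640 CPM (log2 fold change 0.23, adjusted p = 0.677 from edgeR). *Itga2b* was higher (log2 fold change 0.93, adjusted p = 0.023 from edgeR), so of 3 tested erythroid and platelet markers 2 were higher and 0 lower. The part of T cells or platelets in the *Ccl5* values was not tested.

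*Ccl20*, the ligand of CCR6, was at 31.6, 27.2 and 25.5 CPM against 34.9, 30.0 and 34.3 CPM (log2 fold change -0.24, adjusted p = 0.116 from edgeR). The labels overlapped, and without KO-1 the adjusted p was 0.0427. *Ccl8*, a CC ligand near the floor, ran from 1.06 to 1.55 CPM against 0.700 to 1.09 CPM (log2 fold change 0.58, SE 0.32, adjusted p = 0.209 from edgeR).

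The remaining ligands that passed the threshold were all lower. *Cxcl12* (ENSMUSG00000061353, chr6:117168535-117181367), the stromal ligand of CXCR4 and ACKR3, was at 152, 170 and 162 CPM against 213, 209 and 208 CPM. It was even among the WT-labelled libraries and fell by 0.38 on the log2 scale (SE 0.05, adjusted p = 0.00123 from edgeR). *Cxcl14* (ENSMUSG00000021508, chr13:56288647-56296551), a chemokine of epithelium and stroma, was at 0.491, 1.50 and 0.903 CPM against 3.08, 3.28 and 3.34 CPM. Although low, it had the largest fall of the ligands, -1.72 (SE 0.33, adjusted p = 0.00538 from edgeR), and it held under every alternative, with values from -2.16 to -0.86. *Cxcl10*, an interferon-induced ligand of CXCR3, was at 143, 133 and 134 CPM against 195, 161 and 171 CPM (log2 fold change -0.36, SE 0.08, adjusted p = 0.00783 from edgeR). Its companions *Cxcl9* and *Cxcl11* had at most 10 counts in a library and were not tested.

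*Cxcl16* and *Cx3cl1* encode the membrane-anchored ligands, which also serve in adhesion. *Cxcl16* was at 154, 172 and 159 CPM against 228, 221 and 224 CPM, and it had the smallest adjusted p of the members (log2 fold change -0.47, SE 0.05, adjusted p = 0.000409 from edgeR). It shares 552 exon bases with *Zmynd15* on the opposite strand, which was also lower (log2 fold change -0.38, adjusted p = 0.0136 from edgeR), and the counting strand is not given in the sources used here, so these reads could be split either way. *Cx3cl1* was at 79.8, 86.9 and 82.4 CPM against 98.2, 90.8 and 86.5 CPM (log2 fold change -0.15, adjusted p = 0.128 from edgeR), with overlap. Of the low homeostatic ligands, *Ccl25* ran from 3.22 to 3.85 CPM against 2.56 to 3.21 CPM (log2 fold change 0.35, SE 0.18, adjusted p = 0.188 from edgeR) and *Ccl27a* from 1.73 to 4.19 CPM against 2.39 to 2.84 CPM (log2 fold change 0.08, SE 0.32, adjusted p = 0.875 from edgeR).

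Of the signaling receptors, 6 of 18 were tested. Of these, 3 were lower (50.0%, where 12.5% of all tested genes were) and 1 was higher (16.7%, where 17.7% were). The 1 higher, *Ccr10*, passed the expression filter only through the KO-labelled libraries. *Cxcr4* (ENSMUSG00000045382, chr1:128588199-128592293), the signaling receptor of CXCL12, was at 5.57, 5.03 and 3.68 CPM against 8.33, 8.19 and 7.75 CPM. It fell by 0.78 on the log2 scale (SE 0.17, adjusted p = 0.0105 from edgeR) and held under all 13 alternatives. *Cx3cr1*, the fractalkine receptor of monocytes and macrophages, was at 30.3, 27.4 and 31.7 CPM against 45.6, 40.2 and 43.4 CPM (log2 fold change -0.53, SE 0.08, adjusted p = 0.00207 from edgeR). *Ccr1* was at 5.32, 5.85 and 5.54 CPM against 7.63, 7.92 and 7.82 CPM (log2 fold change -0.48, SE 0.12, adjusted p = 0.019 from edgeR). Both receptors were even within a label, and the *Ccr1* call was lost with DESeq2 (0.0875) and without KO-1 (0.0553), KO-3 (0.0606), WT-2 (0.0606) or WT-3 (0.0519). *Cxcr3* ran from 0.600 to 1.15 CPM against 0.569 to 0.910 CPM (log2 fold change 0.23, SE 0.37, adjusted p = 0.676 from edgeR).

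*Ccr10* (ENSMUSG00000044052, chr11:101172997-101175443, minus strand), receptor of CCL27 and CCL28, was counted under the KO label only, with 53, 26 and 52 counts (4.34, 1.95 and 3.35 CPM) against 0, 0 and 0. Its mean under the KO label (3.21 CPM) was 15.4-fold the floor of 3 counts per library (0.209 CPM over the WT-labelled libraries). The gene passed the expression filter only through the KO-labelled libraries, so its adjusted p (0.00101 from edgeR) adds no support to these counts. The whole gene lies within the span of *Cntnap1* on the opposite strand, with no exon base shared in GENCODE M21. *Cntnap1* had 356, 323 and 437 counts against 116, 152 and 103 (log2 fold change 1.66). The library kit marks strand and the counting strand is not given in the sources used here, so the part of reads from *Cntnap1* in the *Ccr10* counts was not tested. Its ligand *Ccl28* had at most 3 counts in a library.

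The 2 atypical receptors that could be tested moved in opposite directions. *Ackr3* (ENSMUSG00000044337, chr1:90203980-90216751), which takes up CXCL12 and CXCL11, was at 39.3, 29.5 and 34.5 CPM against 21.4, 18.3 and 21.8 CPM. The labels were well apart, with a log2 fold change of 0.75 (SE 0.12, adjusted p = 0.00248 from edgeR), and the call held under all alternatives. *Ackr1* (ENSMUSG00000037872, chr1:173331886-173333750), the Duffy antigen receptor of venular endothelium and erythroid cells, was at 1.47, 4.28 and 1.35 CPM against 8.75, 6.48 and 8.11 CPM. It fell by 1.72 on the log2 scale (SE 0.38, adjusted p = 0.0109 from edgeR), from -2.45 to -1.11 over the alternatives. *Ackr1* shares 361 exon bases, 25.7% of its exons, with *Cadm3* on the same strand, which had 25, 28 and 49 counts against 53, 45 and 71 (log2 fold change -0.68, adjusted p = 0.0885 from edgeR). *Ackr1* was lower where 13 of 15 endothelial markers were higher, with a median log2 fold change of 2.55 over those 15.

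The CXCL12 axis was read within libraries as well. The ratio of the *Ackr3* to the *Cxcl12* level was 0.632, 0.424 and 0.521 under the KO label and 0.245, 0.214 and 0.255 under the WT label. The ratio of *Cxcr4* to *Cxcl12* was 0.166, 0.134 and 0.103 against 0.177, 0.177 and 0.168. The first was higher and the second lower in every KO-labelled library, each at the smallest exact permutation p of 0.1. For the second the labels nearly met, at 0.166 in KO-1 against 0.168 in WT-3.

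**Figure D3:**
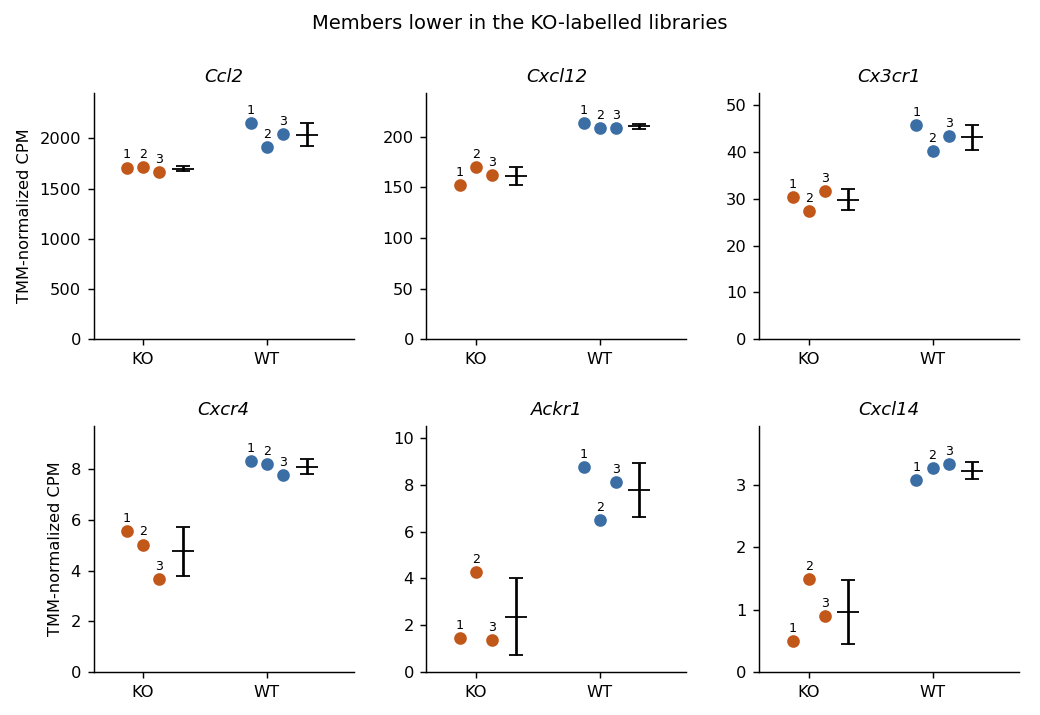
TMM-normalized CPM of *Ccl2*, *Cxcl12*, *Cx3cr1*, *Cxcr4*, *Ackr1* and *Cxcl14* in each library (points, numbered by replicate), with the mean and SD of the 3 libraries of a label. The labels do not overlap in any of the 6 panels, and KO-2 is the highest KO-labelled library for *Ackr1* and *Cxcl14*.

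To compare levels between genes, CPM were divided by the merged exon length in kilobases (GENCODE M21). On this scale all ligands together were at 4209, 3651 and 3608 under the KO label and at 4298, 3737 and 4059 under the WT label, which overlapped. *Ccl2*, *Ccl7*, *Cxcl1*, *Cxcl5* and *Ccl3* made up 89.9% to 90.6% of that level in each library. *Ccl2* held 35.7%, 41.2% and 40.6% of it under the KO label and 43.9%, 45.1% and 44.3% under the WT label, and *Cxcl1* held 22.5%, 16.4% and 16.0% against 12.3%, 11.7% and 11.5%. The share of *Cxcl1* was thus higher and that of *Ccl2* lower in every KO-labelled library, with KO-1 the most extreme. *Ccl7* held 19.0% to 19.2% against 17.8% to 18.8%. Signaling receptors together were at 13.1 to 15.7 against 18.0 to 18.9, and atypical receptors at 11.3 to 12.9 against 10.1 to 12.6, far below the ligands.

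**Figure D4:**
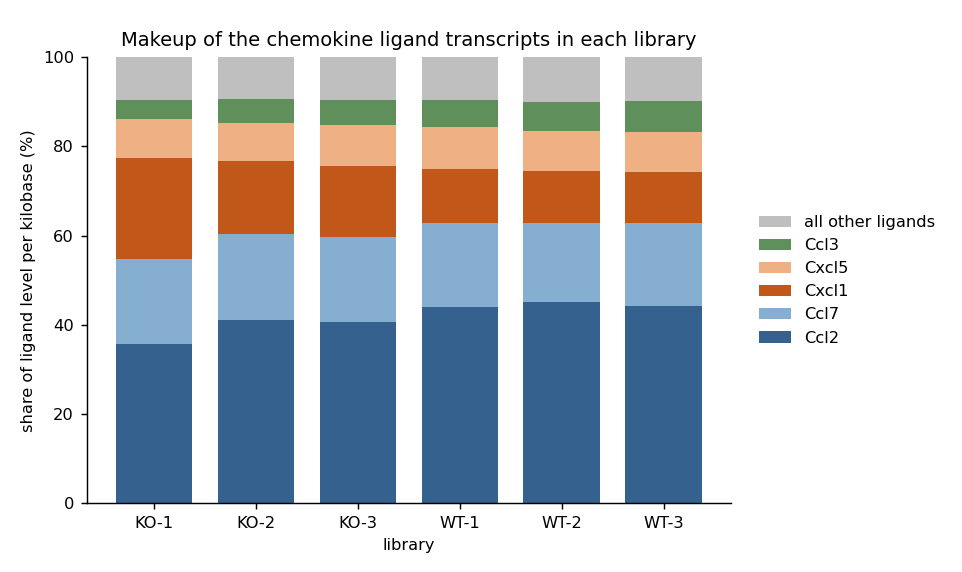
Share of the summed ligand level (TMM-normalized CPM per kilobase of merged exons, in percent) held by the 5 most abundant chemokine ligands and by all others in each library. The *Cxcl1* band is 16.0% to 22.5% in the KO-labelled and 11.5% to 12.3% in the WT-labelled libraries.

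Chemokine genes lie in clusters, and neighbours did not move together in all of them. In the cluster at chr5:90759360-90905938, the order was *Cxcl5* (log2 fold change -0.10), *Cxcl3* (1.10), *Cxcl15* (not tested), *Cxcl1* (0.57) and *Cxcl2* (1.01). In the cluster at chr11:83525778-83664683, *Ccl5* (1.04) rose while *Ccl9* (-0.35), *Ccl6* (-0.48), *Ccl3* (-0.46) and *Ccl4* (-0.33), which follow it, fell. In the cluster at chr11:82035571-82305690, *Ccl2* (-0.27) fell and *Ccl7*, *Ccl12* and *Ccl8* did not pass the threshold.

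**Figure D5:**
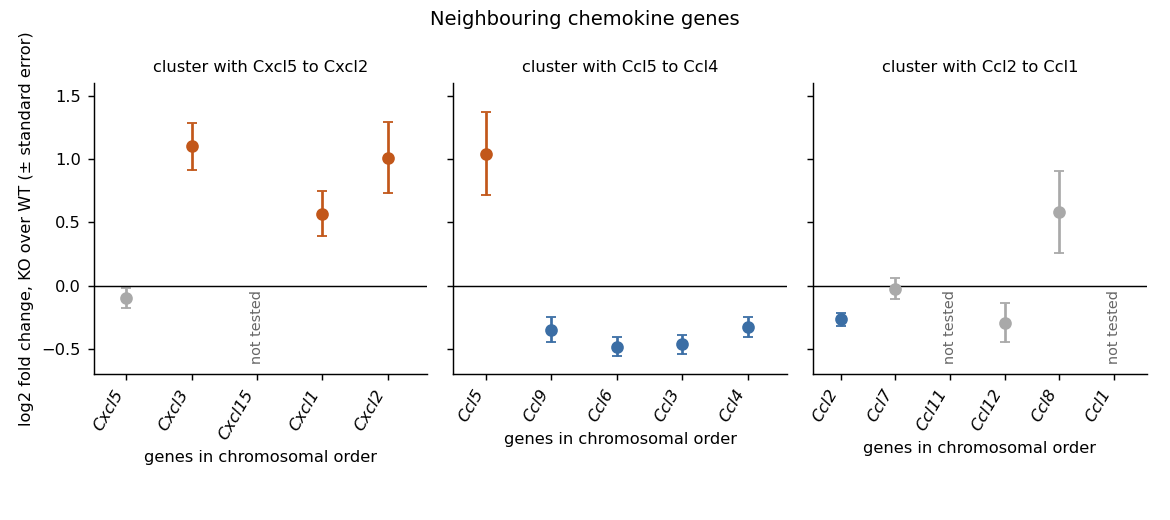
Log2 fold change (KO-labelled over WT-labelled, with standard error) of the members of the 3 ligand clusters with the most tested genes, in chromosomal order, coloured orange where higher, blue where lower and grey where not past an adjusted p of 0.05. *Ccl5* lies at 1.04 beside 4 neighbours between -0.48 and -0.33.

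The other 36 rows did not pass the filter. Of these, 21 had at least 1 count, and the largest was 13, for *Cxcr6* in WT-3 (3, 1 and 4 counts against 7, 4 and 13). *Cxcl9* followed with 3, 6 and 8 against 10, 0 and 4. *Cxcr5* had 3, 2 and 6 against 1, 0 and 1, and *Ackr2* had 3, 0 and 1 against 0, 0 and 6. The others with counts, *Ackr4*, *Ccl11*, *Ccl22*, *Ccl24*, *Ccl28*, *Ccr2*, *Ccr3*, *Ccr4*, *Ccr7*, *Ccr9*, *Cxcl11*, *Cxcl15*, *Cxcl17*, *Cxcr1*, *Cxcr2*, *Xcl1* and *Xcr1*, had at most 5 in a library, so differences were not detectable at this depth. The remaining 15 rows were at 0 in all libraries. They are *Ccl1*, *Ccl19*, *Ccl26*, *Ccl27b*, *Cxcl13*, *Ccr6*, *Ccr8*, *Ccl21a*, *Ccl21b*, *Ccl21c* and extra scaffold copies of *Ccl21a*, *Ccl21c* and *Ccl27a*. The *Ccl21* and *Ccl27* genes are near-identical copies between which reads could be split or dropped, so their values are uncertain.

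Genes around the chemokine system were counted from lists, to be read against the 17.7% of all tested genes that were higher and the 12.5% that were lower. Of 9 tested relatives outside the naming rule, 2 were higher (22.2%), 2 were lower (22.2%) and the median log2 fold change was -0.01. *Gpr182*, an atypical chemokine receptor of endothelium, rose by 3.23 on the log2 scale (adjusted p = 0.000941 from edgeR) and *Pf4* by 2.87 (4.31e-05), while the chemerin gene *Rarres2* (-0.77, 0.0207) and its receptor gene *Cmklr1* (-0.38, 0.0345) were lower. Of 42 tested genes of receptor-proximal signaling, 8 were higher (19.0%) and 9 lower (21.4%), with a median of -0.10. The beta-arrestin gene *Arrb1* (2.11, adjusted p = 0.000965 from edgeR) and the phospholipase gene *Plcb1* (1.38, 0.00224) rose most, and the leukocyte genes *Dock2* (-0.62, 0.00583) and *Rac2* (-0.59, 0.00301), which drive actin in migrating cells, fell most. Of 20 tested proteases and proteoglycans that cut or present chemokines, 13 were lower (65.0%) and only the collagenase gene *Mmp13* was higher (3.14, adjusted p = 6.16e-05 from edgeR), with *Mmp8* (-0.55, 0.0177) and *Mmp12* (-0.46, 0.00318) the largest falls and a median of -0.34. Of 26 tested genes of NF-kB, cytokine and interferon signaling, inhibitors of NF-kB included, 3 were higher (11.5%) and 6 lower (23.1%), with a median of -0.08. *Tnfrsf1a* (0.42, adjusted p = 0.000588 from edgeR) and the NF-kB inhibitor gene *Nfkbie* (0.41, 0.0178) rose, *Tnf* (-0.41, 0.0249) and *Lif* (-0.38, 0.00684) fell, and *Nfkbia*, an inhibitor and itself an NF-kB target, was at -0.03 (0.756).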

How the data were processed

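Total RNA of the isolated cells was enriched for poly(A) and sequenced from strand-specific libraries as paired reads of 150 bases. The authors deposited raw whole-number counts per gene and FPKM values. Each FPKM is the count over the library total and a gene length, and that length was the same in all libraries to within a relative spread of 0.00078. Processing notes name HISAT2, edgeR, mm10 and GRCm38.p4; the counter, annotation and strand setting are not given in the sources used here. The implied length exceeded the merged exon length of GENCODE M21 by more than 1% for 66.7% of 15281 genes, so the deposited FPKM were not used to compare genes, and TMM-normalized CPM per kilobase of merged exons were computed instead.

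The quasi-likelihood test of edgeR 4.0.16 (R 4.3.3) was run on the counts (filterByExpr, TMM, two-sided, Benjamini-Hochberg over 14084 genes, all 6 libraries, no covariate), after a test on simulated data. Standard errors are the log2 fold change over the square root of the F statistic. The precision is that of 3 libraries per label, and floors of 3 counts cover counting error only. No pair of libraries was a duplicate: between libraries of the same label 21.9% to 31.6% of genes had an unadjusted p under 0.05 in an exact binomial test. Alternatives were DESeq2 1.42.0, library size, upper quartile, a minimum mean CPM of 1 or no filter, limma 3.58.1 on log2(FPKM + 1) (minimum mean FPKM 0.1), a replicate block, each library left out, and a fold above 2 in addition. The 2 marker scalings were added after seeing the data. Results for 1 tested receptor gene are counted but not reported here. The members, lists and tests were chosen with earlier results of these data known. Called members are given in full, other tested members with library values from a mean FPKM of 5 upward and otherwise by range, untested members by counts, and of each list the 2 largest called rises and falls. Levels of label-check and overlapping genes were added after their values were seen. Figures were drawn with matplotlib 3.10.9.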

Additional observations from a re-analysis of the deposited data

How the results depend on the processing

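Of 389 fold changes of tested members under the alternatives other than marker scaling, 344 kept their direction and their side of the threshold, 36 lost and 3 gained the call, and 6 changed sign, all 6 in *Ccl7* and *Ccl27a*, which were not called. *Ccl7* was at 0.0105 with library size and at 0.011 with limma, and between -0.10 and 0.042 when a library was left out. *Ccl27a* was between -0.37 and 0.33 when a library was left out. limma on log2(FPKM + 1) called 3 members higher, and requiring a fold above 2 left 2 members lower, 844 of all genes higher and 38 lower. Leaving out a library gave 3 to 6 members higher, with 3 without WT-2 or WT-3, and 1144 to 1636 of all genes lower, with 1144 without KO-3. The replicate block gave 6 members higher and 13 lower, and 2316 and 1591 of all genes. No source used here says whether same-numbered libraries were handled together. Over all tested genes, deviations of same-numbered libraries from their label means correlated at 0.00, 0.00 and 0.03. Such values do not show whether single genes shared an effect of the number, which was not tested. DESeq2, library size and upper quartile moved the median of all genes by -0.04 to 0.03.

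Scaling on fibroblast markers, added after seeing the data, gave 12 members higher and 2 lower, and 8852 and 37 of all genes. It turned *Ccl2* (0.16), *Ccl4* (0.10), *Ccl7* (0.41), *Ccl9* (0.079), *Ccl12* (0.13), *Ccl20* (0.19), *Cx3cl1* (0.28), *Cxcl5* (0.34), *Cxcl10* (0.067) and *Cxcl12* (0.043) to values above 0. Macrophage markers gave 8 members higher and 5 lower, and 5624 and 140 of all genes, and turned *Ccl7* (0.23), *Ccl20* (0.012), *Cx3cl1* (0.11) and *Cxcl5* (0.15). These shifts follow from the scaling itself. At this depth, the 36 rows with at most 13 counts in any library were not tested.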
